A study of Homo sapiens with 12 samples.

Results

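The comparison described here is that of LEO1 knockout (ΔLEO1) with wild-type BJ-5ta fibroblasts after 10 days in 0.1% serum. BJ-5ta is an established line of human skin fibroblasts immortalized with telomerase. The comparison rests on the 6 poly(A) RNA libraries of this serum level, out of 12 in the series, with 3 wild-type libraries (running numbers 7, 8 and 9) and 3 ΔLEO1 libraries (10, 11 and 12). The other 6 libraries, of the same genotypes in 10% serum, entered the gene filter and the fit. They help set the spread that the tests assume, so they affect which genes are called. Otherwise they are used for comparison. All ΔLEO1 libraries came from 1 clone made by CRISPR/Cas9 deletion of the start of the gene, so differences between clones are not covered. Nothing in the sources used here says that the 3 libraries of a group were separate cultures, so the p-values measure the spread between libraries, which may be technical. The comparison was described across the 13236 of 60671 genes in the count table that had over 1 CPM, a count scaled to a common total of gene counts per library, in 3 or more libraries.

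LEO1 is a subunit of PAF1C, the PAF1 complex, which travels with RNA polymerase II along genes. The complex is known to aid elongation through chromatin and to help place histone marks that go with transcription. Fibroblasts deprived of serum leave the cell cycle for quiescence, a reversible resting state in which they stay metabolically active and keep secreting and remodelling extracellular matrix.

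The libraries of 0.1% serum held 26240632 to 35299219 gene counts. Synthetic ERCC transcripts added to the RNA gave 1.67% to 2.63% of the counts in wild type and 1.09% to 3.24% in ΔLEO1. Values below are ERCC-scaled counts, the CPM of a gene when the ERCC total, times a TMM factor on the ERCC transcripts, is taken as library size, so they follow RNA relative to the spike-in. Gene counts per ERCC count were 46.8, 60.3 and 37.3 in wild-type libraries 7, 8 and 9 and 52.7, 30.0 and 90.7 in ΔLEO1 libraries 10, 11 and 12, and library 12 therefore has the highest ERCC-scaled count of many genes. The highest-numbered library of each genotype stood apart from the other two. The chi-square per gene was 10.26 between wild-type libraries 7 and 8 but 84.69 and 74.34 against library 9, and it was 12.26 between ΔLEO1 libraries 10 and 11 but 145.6 and 133.3 against library 12. Log2 fold changes (log2FC) are ΔLEO1 over wild type on the ERCC scale, each unit being a factor of 2, with their standard error (SE). A gene was called at a Benjamini-Hochberg adjusted p under 0.05 in edgeR's two-sided likelihood ratio test. In bulk RNA, fewer cells expressing a gene and less RNA per cell cannot be told apart.

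Markers of fibroblasts were present in both genotypes. All 10 markers on the list were tested in both groups, and their summed level was 57200 to 76600 CPM in wild type and 52900 to 61700 CPM in ΔLEO1. Some markers of other cell types moved with genotype. The epithelial list of 8 genes summed to 167.0 to 182.0 CPM in wild type and 510.0 to 585.0 CPM in ΔLEO1, nearly all from the keratins KRT18 and KRT8. Its defining members CDH1, KRT19, KRT5 and KRT14 had 3 counts or fewer in every wild-type library, and EPCAM had 3 or fewer in every ΔLEO1 library. In ΔLEO1, CDH1, KRT19, KRT5 and KRT14 each exceeded 3 counts in some library, and their mean CPM was higher than in wild type. The mean CPM of EPCAM and CLDN4 was lower in ΔLEO1. All of these genes were of low level and did not pass the filter on counts. KRT18, a keratin of simple epithelia, had ERCC-scaled counts of 4494, 6062 and 3617 in wild type and 24700, 14930 and 50680 in ΔLEO1, and it rose by a log2FC of 2.67 (SE 0.44, adjusted p = 5.47e-07). Of the exonic bases of KRT18 16.3% lie under exons of the opposite strand. KRT8, its usual partner, had a log2FC of −0.9955 (adjusted p = 0.254). The leukocyte list of 6 genes summed to 2.35 to 2.96 CPM and 6.63 to 9.01 CPM, where CD3E and ITGAM had 3 counts or fewer in every library. PTPRC, the CD45 phosphatase of leukocytes, rose with a log2FC of 4.15 (SE 0.55, adjusted p = 3.14e-10). The other detected members did not go with it, as the mean CPM of CD68 was lower in ΔLEO1 and that of CD14 was similar in both genotypes. The endothelial list of 5 genes summed to 2.67 to 5.52 CPM in wild type and 0.4 to 0.595 CPM in ΔLEO1, with CDH5 and KDR at 3 counts or fewer in every library, and TEK, an angiopoietin receptor, was at least 26.9-fold lower. The adipocyte list of 4 genes summed to 0.267 to 0.305 CPM and 3.0 to 5.32 CPM, with ADIPOQ and LEP at 3 counts or fewer in every library, the melanocyte and Schwann list to 0.495 to 0.594 and 0.567 to 1.58 CPM, and the skeletal muscle list to 1.25 to 1.68 and 0.489 to 2.49 CPM. The part of these markers in the results that follow was not tested.

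LEO1 itself (ENSG00000166477, GRCh38 chromosome 15, 51938025 to 51971806, minus strand) had ERCC-scaled counts of 1392, 1837 and 759 in the wild-type libraries. In the ΔLEO1 libraries it had 34.8, 43.3 and 126. All ΔLEO1 values lay far below all wild-type values, and the log2FC was −4.33 (SE 0.50, adjusted p = 1.43e-12). Its raw counts in ΔLEO1 were 23, 47 and 49, and reads from the part of the gene outside the deletion cannot be told apart in gene totals. None of the other 5 subunits of PAF1C was called. RTF1, a subunit tied to histone H2B ubiquitination, had a log2FC of 0.16 (adjusted p = 0.913). CTR9, a scaffold of the complex, had 0.53 (adjusted p = 0.747). Among 26 genes of RNA polymerase II elongation none was called, with a median log2FC of 0.34 against 0.27 over all tested genes, and the abundant members SUPT6H and SUPT16H, both histone chaperones, had 0.44 (adjusted p = 0.779) and 0.46 (adjusted p = 0.765). Among 25 genes of histone H3K9 methylation none was called either, with a median of 0.31, and TRIM28, a corepressor that recruits such enzymes, had 0.67 (adjusted p = 0.596).

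In ΔLEO1 cells, 509 genes were higher (3.85% of those tested) and 475 were lower (3.59%). The higher genes had a median log2FC of 2.26, from 1.31 to 11.47, and 154 of them were at least 8-fold higher. The lower genes fell by a median of 2.54 on the log2 scale, and by 1.37 to 10.59, with 184 at least 8-fold lower. ERCC-scaled counts of the genotypes did not overlap in 441 (86.6%) of the higher and 447 (94.1%) of the lower genes, against 1253 (9.47%) of all tested genes. The genes were called on these same values, so their shares are not separate support. In 63 of the higher genes every wild-type library had 3 counts or fewer, and in 57 of the lower genes every ΔLEO1 library did. Protein-coding genes made up 379 of the higher and 435 of the lower genes.

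Most of these genes were also called by the other tests, while their number moved with the scaling and the libraries. The quasi-likelihood test of edgeR called 462 of the higher and 452 of the lower genes, and DESeq2 451 and 428 of them. The median log2FC of all tested genes was 0.27, with 73.6% of genes above 0. With TMM factors on the genes, which measures each gene against the others, the median was 0.02, and 2033 genes were called higher (15.4%) and 2333 lower (17.6%). Of the genes called on the ERCC scale, 499 of 509 and 473 of 475 were called the same way with TMM factors. Without library 12 the median was −0.27, and 338 genes were called higher and 1037 lower. Without library 11 it was 0.58, with 1310 higher and 411 lower, and without library 10 it was 0.38, with 462 and 346. Without wild-type library 7, 8 or 9 there were 314, 421 and 335 higher and 350, 312 and 430 lower genes. The 6 libraries of 0.1% serum fitted alone gave 303 higher and 349 lower genes. Without the highest-numbered library of each of the 4 groups the median was −0.42, with 328 higher and 2047 lower genes. That fit tested 444 of the 509 higher genes and gave the same sign for 442 and a call for 314, and it called all 414 of the lower genes that it tested. The sign of the median thus turned without library 12, and 240 higher and 279 lower genes were called in all 6 fits that left out 1 library. The main genes below are given with their values per library.

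Several of the genes with the largest increases were silent or nearly so in wild type. LINC00355, a long noncoding RNA gene of chromosome 13, had no counts in any wild-type library and ERCC-scaled counts of 653, 361 and 959 in ΔLEO1, at least 137-fold higher. PCDH9, a protocadherin of neural cell contacts that lies on the same chromosome arm (66302834 to 67230445 against 63851197 to 64076044), went from 1.39, 0 and 1.11 to 459, 273 and 1136, at least 130-fold higher. TNFSF18, the ligand of GITR, a receptor on T cells, had 152, 161 and 25.6 in wild type and 20349, 10707 and 36900 in ΔLEO1. Of these 3 genes TNFSF18 reached by far the highest level, and its log2FC was 7.66 (SE 0.45, adjusted p = 8.61e-34). CPA3, a carboxypeptidase best known from mast cells, had 1.39, 4.6 and 14.5 against 519, 255 and 1565, a log2FC of 6.68 (SE 0.60). The leucine zipper gene LUZP2 had 12.5, 4.6 and 14.5 against 427, 281 and 1362, a log2FC of 5.93 (SE 0.59). In each of these genes the lowest ΔLEO1 library was more than 8-fold above the highest wild-type library.

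Higher genes that were already detected in wild type included receptors, enzymes and structural genes. OLR1, a receptor for oxidized low-density lipoprotein, had 48.7, 87.4 and 91.3 in wild type and 1595, 1014 and 7396 in ΔLEO1 (log2FC 5.46, SE 0.46, adjusted p = 2.24e-20). GDA, the guanine deaminase of purine breakdown, had 117, 120 and 94.6 against 2587, 1477 and 8211 (5.21, SE 0.46, adjusted p = 5.86e-19). ACTG2, a smooth muscle actin, had 452, 618 and 512 against 8629, 4508 and 14944 (4.15, SE 0.45, adjusted p = 6.1e-14). In all 3 genes library 12 was the highest and library 11 the lowest of the ΔLEO1 libraries, the order of the gene counts per ERCC count. TAFA2, a secreted protein of the TAFA family, had 83.5, 69 and 79 against 860, 475 and 1866 (3.78, SE 0.50, adjusted p = 3.27e-10). KRTAP1-5, a keratin-associated protein of hair, had 175, 202 and 204 against 2406, 1166 and 4215 (3.74, SE 0.46, adjusted p = 2.54e-11). FMO1, a flavin monooxygenase, had 32, 80.5 and 2.23 against 837, 418 and 367 (3.89, SE 0.53, adjusted p = 1.03e-09), and its wild-type values spread more than those of the others. PCDHGB5, a gamma protocadherin, was called higher with a log2FC of 5.23 (SE 0.49), but 54.2% of the 58-base stretches of its transcripts also occur in neighbouring members of the cluster, so its counts are uncertain.

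Among genes picked for at least 10 CPM in wild type, the largest decreases were as follows. MSR1, a scavenger receptor of macrophages, had ERCC-scaled counts of 2680, 3529 and 3742 in wild type and 4.54, 8.29 and 7.71 in ΔLEO1, a log2FC of −8.86 (SE 0.60, adjusted p = 1.52e-34). CSMD1, a large membrane protein with complement-control domains, had 867, 740 and 773 against 1.51, 2.76 and 7.71 and was at least 158-fold lower. CPE, which trims peptide hormone precursors, had 1431, 2159 and 1278 against 15.1, 6.45 and 10.3 (log2FC −7.26, SE 0.59, adjusted p = 1.34e-23). The spread within each genotype was small beside these differences. GAP43, a growth cone protein of neurons, had 611, 903 and 148 against 6.06, 1.84 and 2.57 (−7.26, SE 0.75, adjusted p = 3.49e-20). SGCD, delta-sarcoglycan of the dystrophin complex, had 7768, 8524 and 4352 against 71.2, 25.8 and 113 (−6.66, SE 0.47, adjusted p = 3.62e-26). SGCD had the highest wild-type level of these genes on the ERCC scale, which is not corrected for gene length. SYNM, an intermediate filament protein, had 1321, 1543 and 1015 against 6.06, 5.52 and 23.1 (−6.96, SE 0.58, adjusted p = 2.02e-23), although 27.7% of its exonic bases lie under exons of antisense genes and the strand setting of the counting is not given in the sources used here.

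Ion channels, transporters and a transcription factor were also among these genes. KCNS3, a modulatory potassium channel subunit, had 750, 1002 and 410 in wild type and 10.6, 5.52 and 7.71 in ΔLEO1 (log2FC −6.49, SE 0.62, adjusted p = 2.7e-19). CACNA1A, the pore of a neuronal calcium channel, had 588, 841 and 480 against 10.6, 2.76 and 10.3 (−6.42, SE 0.63, adjusted p = 7.12e-19). SLC7A8, an exchanger of neutral amino acids, had 1097, 1526 and 776 against 21.2, 12 and 10.3 (−6.25, SE 0.57, adjusted p = 2.26e-19). In each of these the groups were far apart. NHSL2 had 1440, 1345 and 465 against 9.09, 14.7 and 18 (−6.28, SE 0.56, adjusted p = 5.94e-20). NFATC1, a calcineurin-regulated transcription factor, had 545, 793 and 253 against 10.6, 9.21 and 5.14 (−5.90, SE 0.61, adjusted p = 1.22e-16). PCDHGA12, another gamma protocadherin, was called lower with −6.48 (SE 0.56), and 49.0% of its 58-base stretches are shared with other members, so its counts are uncertain. Every gene of this paragraph was also called lower in 10% serum.

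**Figure D1:**
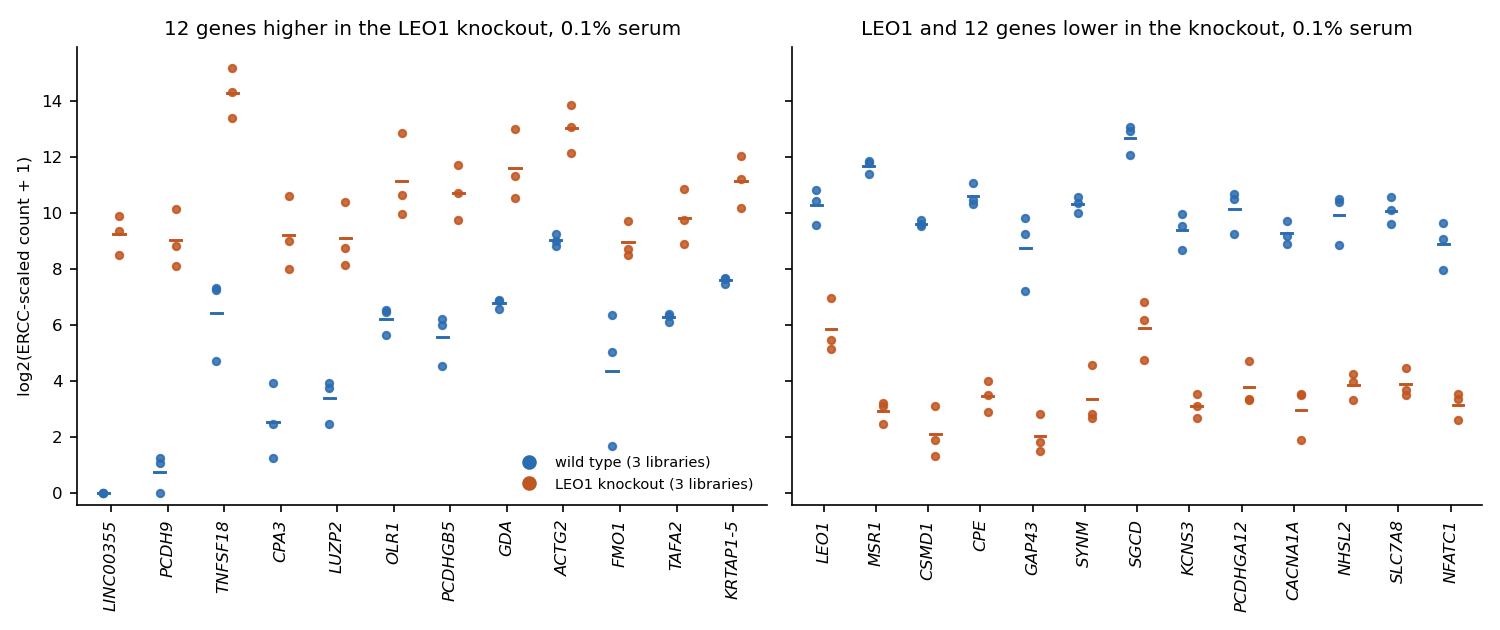
log2 of the ERCC-scaled count plus 1 in each of the 3 wild-type and 3 ΔLEO1 libraries in 0.1% serum for the genes with the largest log2FC values in each direction, with points for libraries and a bar for the mean of a genotype. The genes were picked among those whose genotypes do not overlap, and TNFSF18 ran from 25.6 to 161 in wild type and from 10707 to 36900 in ΔLEO1, and MSR1 from 2680 to 3742 and from 4.54 to 8.29.

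Many interferon-stimulated genes were higher in ΔLEO1. These genes are induced when interferons act through STAT and IRF transcription factors, and many encode proteins that act on viral RNA or its translation. Of 51 tested members, 18 were called higher (35.3%) and 1 was called lower (1.96%). Their median log2FC was 0.92, and 47 of 51 were above 0, against 73.6% of all tested genes. TMM factors on the genes gave 27 higher and 2 lower members, and without the highest-numbered libraries 17 and 2. Over all tested genes TMM factors called 15.4% higher and 17.6% lower. Without the highest-numbered libraries 328 of all genes were higher and 2047 lower. The list counts from these fits, here and below, stand against those backgrounds. Counts of the main fit, for every list, stand against 3.85% higher and 3.59% lower of all tested genes.

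The proximal promoters of these genes often hold the response element that IRF and STAT complexes bind. The core searched was GAAA, any 2 bases and GAAA, on both strands, overlapping matches included, in the 300 bases from 250 before to 50 after the start in the RefSeq promoter table of GRCh38.p14. It occurred in 996 of 27305 promoters (3.65%). Of 40 tested members of the list that matched the table, 25 held it (62.5%), among them 9 of 12 called higher (75.0%) and 15 of 27 that were not called (55.6%). Among all called genes that matched, it was in 24 of 337 higher (7.12%) and 14 of 344 lower (4.07%) promoters. A match describes the letters only. The stretches of 5 genes called higher are shown as examples of promoters with more than 1 copy of the core, which IFI44L, IFI6 and OAS3 also had. Capitals mark the cores, which read GAAA in the gene's orientation or TTTC where the core lies on the other strand, and each stretch runs 5′ to 3′ on the strand of its gene.
ISG15 (chr1:1013369-1013414, plus strand): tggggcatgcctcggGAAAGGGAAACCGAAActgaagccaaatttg
IFIT1 (chr10:89392492-89392544, plus strand): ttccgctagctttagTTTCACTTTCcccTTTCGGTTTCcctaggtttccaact
IFIT3 (chr10:89327826-89327899, plus strand): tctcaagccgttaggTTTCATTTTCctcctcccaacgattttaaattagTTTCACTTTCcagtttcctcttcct
IFI27 (chr14:94110613-94110665, plus strand): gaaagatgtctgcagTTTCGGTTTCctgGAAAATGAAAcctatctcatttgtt
BST2 (chr19:17405730-17405775, minus strand): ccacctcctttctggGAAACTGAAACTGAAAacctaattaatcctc

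ISG15, a ubiquitin-like modifier, had ERCC-scaled counts of 384, 786 and 444 in wild type and 3589, 2138 and 3384 in ΔLEO1. The genotypes did not overlap, and its log2FC was 2.50 (SE 0.46, adjusted p = 8.18e-06). IFI6, which limits flavivirus replication, had 2903, 5189 and 3043 against 21652, 13630 and 22489 (2.38, SE 0.44, adjusted p = 1.33e-05). OAS1, an RNA-activated oligoadenylate synthetase, had 174, 285 and 230 against 1577, 928 and 1580 (2.57, SE 0.48, adjusted p = 1.66e-05), and its neighbour OAS2 had 355, 499 and 325 against 2141, 1317 and 2287 (2.29, SE 0.46, adjusted p = 7.62e-05). In these 4 genes library 12 was close to library 10. The other genes whose promoters are shown above did not overlap between genotypes either. IFI27 had 9.74, 9.2 and 15.6 against 120, 77.3 and 108 (3.08, adjusted p = 9.16e-06), and IFIT1, which binds foreign RNA caps, had 754, 1202 and 1410 against 4349, 2635 and 8370 (2.19, adjusted p = 0.000102). IFIT3 had 1463, 2012 and 2004 against 5453, 2942 and 7463 (1.53, adjusted p = 0.0143), and BST2, the tetherin that holds budding virions, had 166, 278 and 129 against 715, 429 and 542 (1.56, adjusted p = 0.02). OASL had 9.74, 9.2 and 7.79 against 69.7, 39.6 and 82.2 (2.80, adjusted p = 0.000239).

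Regulators of the same pathway were also higher. IRF7, a transcription factor of the interferon genes, had a log2FC of 1.58 (adjusted p = 0.0211). RIGI, a sensor of viral RNA, had 1.66 (adjusted p = 0.00769), and USP18, which removes ISG15 from proteins and damps the receptor, had 1.70 (adjusted p = 0.0169). Other genes called higher were IFI44L, IFIT2, OAS3, HERC6 and GBP1. HERC5, the ligase that attaches ISG15, was the member that fell, with 217, 260 and 222 against 37.9, 19.3 and 74.5 (−2.45, adjusted p = 0.000316). The most abundant members were not called, as IFITM3 had 0.09 (adjusted p = 0.948) and the RNA editing enzyme ADAR had 0.60 (adjusted p = 0.678). The quasi-likelihood test called 17 of the 18, all but OAS3, and 7 of the 18 were called in all 6 fits without 1 library. Without library 7 or 9 there were 7 and 8 members called higher, without library 10 there were 12, and without library 11 there were 26.

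Many genes of sterol and fatty acid synthesis were higher in ΔLEO1, and none was called lower. These enzymes and receptors are controlled together by the SREBP transcription factors, which are released when membrane cholesterol is low. Of 33 members, all tested, 13 were called higher (39.4%), and the median log2FC was 1.28. Above 0 were 32 of the members, against 73.6% of all tested genes. TMM factors gave 26 higher and 1 lower, and without the highest-numbered libraries 11 and 0. DHCR7, which acts late in cholesterol synthesis, had 889, 1074 and 1313 in wild type and 4887, 2687 and 8773 in ΔLEO1 (log2FC 2.32, SE 0.45, adjusted p = 3.4e-05). Its genotypes did not overlap.

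Members of several steps of this pathway were among the called genes. HMGCS1, an early enzyme of the mevalonate pathway, had a log2FC of 1.75 (adjusted p = 0.00344). The mevalonate kinase MVK had 1.497 (adjusted p = 0.0326), and the sterol reductase TM7SF2 had 1.98 (adjusted p = 0.00301). INSIG1, which retains SREBP in the endoplasmic reticulum, had 876, 1232 and 1453 against 4842, 2863 and 7884 (2.13, SE 0.45, adjusted p = 0.000174). ACAT2, a thiolase that feeds the pathway, had a log2FC of 2.18 (SE 0.47, adjusted p = 0.000236), although 52.3% of its exonic bases lie under exons of genes on the other strand. Of the fatty acid enzymes, the desaturase SCD had 6018, 7322 and 7846 against 25627, 14179 and 44098 (1.99, SE 0.44, adjusted p = 0.000376), and the synthase FASN had 1.43 (SE 0.44, adjusted p = 0.0231). STARD4, a sterol carrier, had 1.395 (adjusted p = 0.0409). SREBF2, the main transcription factor of the sterol branch, had 1.25 (adjusted p = 0.0719) and SQLE, squalene epoxidase, had 1.22 (adjusted p = 0.0914), and neither was called.

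The quasi-likelihood test called 11 of the 13 genes, all but MVK and STARD4, and 6 were called in all 6 fits without 1 library. Without library 7 there were 7, without library 8, 9 or 12 there were 9, without library 10 there were 12, and without library 11 there were 24. A sterol regulatory element written TCACNCCAC, searched on both strands in the same 300 bases after the values were known, was in 313 of 27305 promoters (1.15%). It was in 0 of the 7 called members that matched the table and in 1 of all 25 that matched, SREBF2.

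**Figure D2:**
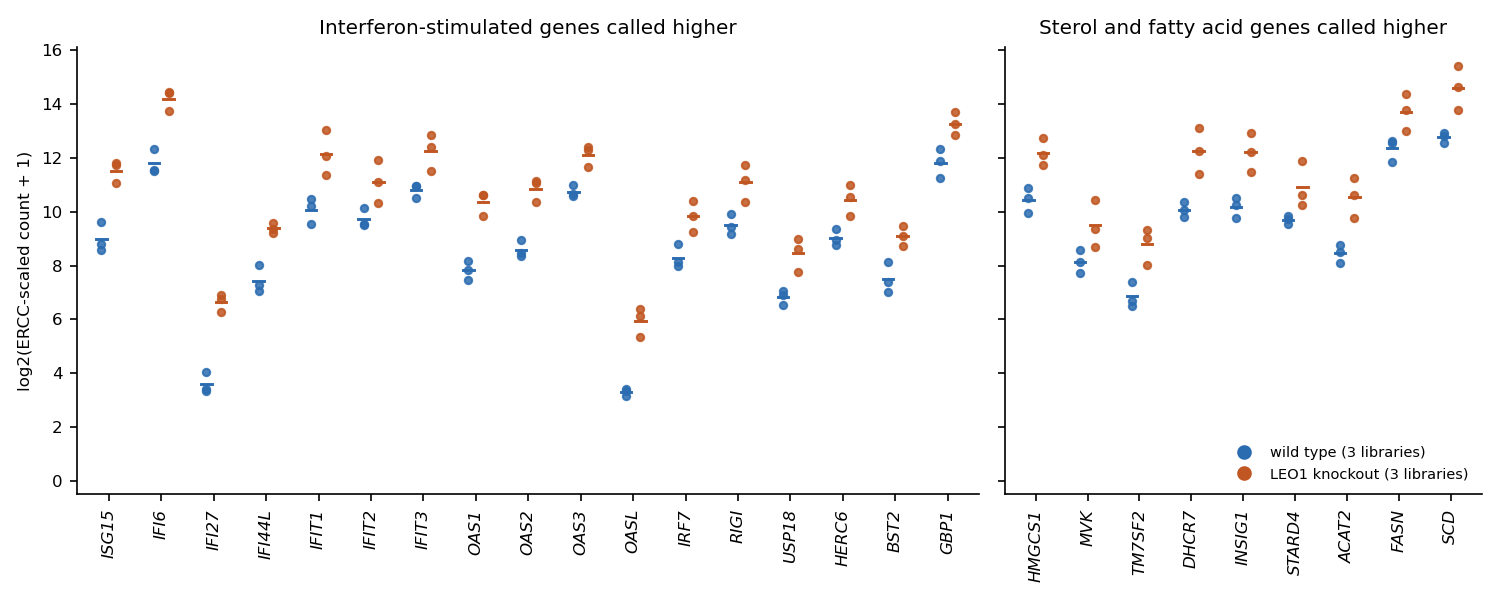
log2 of the ERCC-scaled count plus 1 per library in 0.1% serum for members called higher in the interferon-stimulated list and in the sterol and fatty acid list, not all of which are shown, with 3 points per genotype and a bar for the mean. The ΔLEO1 points lie above the wild-type points in each gene shown, as in ISG15 (384 to 786 in wild type, 2138 to 3589 in ΔLEO1) and DHCR7 (889 to 1313 and 2687 to 8773).

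Cadherins, which join cells through calcium-dependent contacts, changed in both directions. Of 31 members 12 passed the filter on counts. Among these 12 tested members 5 were called higher (41.7%) and 1 lower (8.33%), and the median log2FC was 0.22. The counts were 5 and 4 with TMM factors on the genes, and without the highest-numbered libraries 3 and 3. Besides PCDH9, the protocadherin PCDH7 had 1.39, 0 and 0 in wild type and 223, 133 and 509 in ΔLEO1, at least 60-fold higher. CDH9, a cadherin of synapses, had no counts in wild type and 50, 28.5 and 157 in ΔLEO1, at least 16.3-fold higher. Both genes were off in wild type by these counts and clearly detected in ΔLEO1. Like PCDH9, they could not pass the filter through the wild-type libraries in 0.1% serum, so the 41.7% partly reflects the filter. CDH3, or P-cadherin, had 18.1, 16.1 and 12.2 against 74.2, 48.8 and 113 (log2FC 2.32, adjusted p = 0.00202), and PCDH1 had 1.95 (adjusted p = 0.00972). CDH18 had 57, 59.8 and 62.3 against 4.54, 1.84 and 5.14 and was at least 11.9-fold lower. The most abundant members PCDH10 and PCDH18 had −0.16 (adjusted p = 0.909) and −0.11 (adjusted p = 0.934).

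Guidance ligands and receptors, which steer axons and other migrating cells, also divided. Of 46 tested genes 4 were higher (8.70%) and 5 lower (10.9%), beside 3.85% and 3.59% of all tested genes. Their median was 0.07, and with TMM factors on the genes 7 were higher and 18 lower. SLIT3, a repulsive ligand of ROBO receptors, fell from 12799, 13534 and 12002 to 298, 143 and 707 (log2FC −5.07, SE 0.46, adjusted p = 2.1e-18). Its receptor ROBO2 fell as well, from 13179, 15515 and 8254 to 3180, 1911 and 7499 (−1.55, adjusted p = 0.0124). SEMA3F, a semaphorin, fell from 147, 216 and 232 to 21.2, 15.7 and 51.4 (−2.82, adjusted p = 2.99e-05). SLIT3 and ROBO2 were each lower in every ΔLEO1 library than in any wild-type library. EFNB3, an ephrin ligand, had 638, 828 and 778 against 24.2, 11 and 33.4 (−5.08, SE 0.54, adjusted p = 2.24e-14). SEMA3C rose from 3397, 3975 and 3052 to 13425, 8395 and 34125 (2.42, SE 0.44, adjusted p = 8.88e-06), and the ephrin receptor EPHA2 rose with 1.82 (SE 0.45, adjusted p = 0.00188). The calls of EPHA2, EPHA5 and SEMA3D as higher were lost without the highest-numbered libraries, where EPHA2 had 0.79 (adjusted p = 0.111), EPHA5 −0.01 (adjusted p = 0.988) and SEMA3D 0.51 (adjusted p = 0.333).

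Matrix glycoproteins and proteoglycans, which organize collagen and elastic fibres, were lower more often than higher. Of 52 tested members 8 were lower (15.4%) and 2 higher (3.85%), and the median log2FC was −0.16 where that of all genes was 0.27. As scaled by TMM on the genes 24 were lower and 3 higher, beside 17.6% and 15.4% of all tested genes. Without the highest-numbered libraries 20 were lower and 1 higher, beside 2047 and 328 of all genes. EFEMP1, or fibulin-3 of elastic tissue, fell from 8654, 13380 and 9062 to 1143, 680 and 1190 (−3.37, SE 0.45, adjusted p = 4.44e-10). MFAP5, a microfibril glycoprotein, fell from 634, 979 and 436 to 89.4, 53.4 and 136 (−2.89, SE 0.48, adjusted p = 9.24e-07). FBLN2, another fibulin, fell from 25780, 34401 and 20769 to 7775, 4270 and 11508 (−1.78, adjusted p = 0.00207). These 3 genes serve elastic fibres or microfibrils, but ELN, FBN1, FBN2, FBLN1, FBLN5, MFAP2 and MFAP4 of the list were not among its called members. LTBP1, which stores latent TGF-β on microfibrils, fell with −1.72 (adjusted p = 0.00386). MGP, an inhibitor of calcification, fell from 762, 1391 and 498 to 69.7, 50.6 and 314 (−2.64, SE 0.46, adjusted p = 3.23e-06).

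FMOD, fibromodulin, which binds collagen fibrils, had 127, 140 and 105 in wild type and 1.51, 0.921 and 0 in ΔLEO1, at least 24.7-fold lower. OGN, osteoglycin of the same family of small leucine-rich proteoglycans, had 1245, 1556 and 1121 against 389, 235 and 398 (log2FC −1.94, adjusted p = 0.00339). Other members of that family, the abundant LUM (−0.50, adjusted p = 0.75), DCN (−0.66, adjusted p = 0.607), BGN (−0.17, adjusted p = 0.904) and ASPN (1.34, adjusted p = 0.0914), were not called. SPON2, a secreted protein outside that family, was lower with −1.75 (adjusted p = 0.0172). POSTN, periostin, was the main exception, rising from 6564, 5734 and 4112 to 41428, 21626 and 78811 (3.11, SE 0.44, adjusted p = 3.76e-09). COMP, a cartilage matrix protein, was called higher with 2.47 (adjusted p = 3.35e-05), but its 6754 in library 12 stood against 1233 and 922 in the other ΔLEO1 libraries, and without the highest-numbered libraries it had 0.75 (adjusted p = 0.133). Fibronectin, FN1, had 0.77 (adjusted p = 0.457).

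The main fibrillar collagen genes were not called. COL1A1 had a log2FC of 0.41 (adjusted p = 0.792) and COL1A2 had 0.06 (adjusted p = 0.968). Of 27 tested collagens 3 were higher (11.1%) and 2 lower (7.41%), with a median of 0.05, beside 3.85% and 3.59% of all tested genes. COL4A6, of basement membranes, rose from 291, 368 and 217 to 934, 505 and 1935 (1.95, SE 0.49, adjusted p = 0.00256), and COL28A1 rose with 2.14 (adjusted p = 0.00207). COL8A2 fell from 576, 839 and 272 to 153, 89.3 and 121 (−2.21, SE 0.50, adjusted p = 0.000633). COL21A1, a collagen that associates with fibrils, went from 270, 317 and 318 to 1.51, 0 and 7.71, at least 60.3-fold lower. COL5A3 was called higher with 1.71 (SE 0.44, adjusted p = 0.00359), although its genotypes overlapped and without the highest-numbered libraries it had 0.49 (adjusted p = 0.356). With TMM factors on the genes 5 collagens were higher and 11 lower.

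Enzymes that cut matrix moved both ways, and so did the separate list of serpins and complement genes. None of the TIMP inhibitors on the protease list was called. Of 35 tested proteases and lysyl oxidases 3 were higher (8.57%) and 2 lower (5.71%), beside 3.85% and 3.59% of all tested genes. With TMM factors 6 were higher and 15 lower, and without the highest-numbered libraries 3 and 15. MMP1, interstitial collagenase, rose from 6825, 11111 and 2529 to 51572, 28748 and 34819 (log2FC 2.49, SE 0.44, adjusted p = 3.52e-06), while the abundant gelatinase MMP2 had −0.47 (adjusted p = 0.761). ADAMTS5, an aggrecanase, had 210, 223 and 331 against 701, 405 and 5427 (3.09, SE 0.46, adjusted p = 2.24e-08), and without library 12 it had 1.11 (adjusted p = 0.0503). ADAMTS7 fell from 388, 446 and 336 to 30.3, 15.7 and 121 (−2.88, adjusted p = 6.08e-06), and ADAMTS8 from 409, 501 and 159 to 22.7, 10.1 and 46.3 (−3.83, adjusted p = 1.07e-08). The aggrecanase and the other 2 ADAMTS genes thus went opposite ways. Of 24 tested serpins and complement genes 3 were higher and 3 lower (12.5% each), with a median of −0.39. With TMM factors 5 were higher and 12 lower, and without the highest-numbered libraries 3 and 12. The higher ones, SERPINB2, SERPINB7 and SERPINB9, are intracellular protease inhibitors, and SERPINB2 had 72.3, 66.7 and 74.6 against 280, 169 and 804 (2.54, adjusted p = 3.91e-05). The lower ones included SERPINF1, an antiangiogenic serpin (10297, 16621 and 7116 against 3922, 2770 and 2557; −1.88, SE 0.45, adjusted p = 0.00139), and the complement regulator CFI (−4.52, adjusted p = 3.74e-09).

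Wnt signalling genes were lower more often than higher. Wnt ligands act through frizzled receptors on β-catenin, or through ROR receptors independently of it. Of 32 tested members 7 were lower (21.9%) and 2 higher (6.25%), and the median log2FC was 0.20. Without the highest-numbered libraries the counts were again 7 and 2, although the lower calls over all genes went from 475 to 2047. With TMM factors on the genes 9 members were lower and 4 higher, beside 17.6% and 15.4% of all tested genes. The ROR receptors both fell: ROR2 from 159, 205 and 73.5 to 1.51, 0.921 and 0, at least 29.1-fold lower, and ROR1 from 990, 1074 and 387 to 177, 82.9 and 221 (−2.36, SE 0.50, adjusted p = 0.000237). RSPO3, a secreted amplifier of Wnt signals, fell from 103, 168 and 160 to 6.06, 1.84 and 0 (−5.56, adjusted p = 2.42e-12). WNT11, one of the ligands, fell with −2.53 (adjusted p = 0.00019) although library 9 had 46.8 where the other wild-type libraries had 320 and 384. TCF7, a transcription factor of the pathway, fell from 388, 538 and 139 to 50, 30.4 and 23.1 (−3.34, adjusted p = 3.27e-07), AXIN2, a feedback inhibitor that the pathway induces, fell with −1.94 (adjusted p = 0.00828), and the secreted antagonist FRZB fell with −2.83 (adjusted p = 1.16e-05). The receptor FZD4 rose from 1498, 1812 and 993 to 5128, 2759 and 10033 (2.06, SE 0.45, adjusted p = 0.000321), although 18.9% of its exonic bases lie under exons of the opposite strand. The ligand WNT9A rose with 1.85 (SE 0.49, adjusted p = 0.00513). WNT5A, an abundant ligand, had 0.05 (adjusted p = 0.972).

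Ligands, receptors and inhibitors of the TGF-β and BMP family changed in part. Of 43 tested members 6 were lower (14.0%) and 3 higher (6.98%), and without the highest-numbered libraries 12 and 2. INHBB, the activin B subunit, fell from 823, 1097 and 730 to 51.5, 28.5 and 89.9 (log2FC −4.00, SE 0.50, adjusted p = 6.46e-11). The activin-binding inhibitor FST, follistatin, fell as well, from 1198, 1759 and 699 to 283, 186 and 265 (−2.32, SE 0.49, adjusted p = 0.000203). GDF15, a stress-induced ligand, fell from 370, 584 and 476 to 87.8, 49.7 and 126 (−2.46, SE 0.51, adjusted p = 0.000139), and BMP2 fell with −2.54 (adjusted p = 0.000326). TGFB2 went the other way, from 122, 152 and 132 to 706, 390 and 2673 (3.21, SE 0.46, adjusted p = 1.02e-08), with 25.2% of its 58-base stretches shared with an overlapping transcript, TGFB2-OT1. TGFB1 had 0.15 (adjusted p = 0.916). ID3 and ID4, transcriptional inhibitors that BMP signals induce, rose with 1.97 (adjusted p = 0.000588) and 1.94 (adjusted p = 0.0049).

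Growth factor genes and feedback regulators of ERK signalling were divided too. Of 41 tested members 8 were lower (19.5%) and 4 higher (9.76%), and without the highest-numbered libraries 14 and 4. Among PDGF ligands, which act on fibroblasts, PDGFB rose from 1.39, 11.5 and 0 to 242, 184 and 339 (log2FC 6.18, SE 0.76, adjusted p = 3.8e-15) and PDGFA from 1708, 2490 and 2068 to 5250, 4114 and 8650 (1.52, adjusted p = 0.0166). PDGFC fell from 5322, 6271 and 2614 to 1392, 805 and 2367 (−1.64, adjusted p = 0.00803) and PDGFD from 160, 170 and 263 to 22.7, 17.5 and 38.5 (−2.95, adjusted p = 1.41e-05). Of the 4 ligands a pair rose and a pair fell, while the receptors PDGFRA (0.05, adjusted p = 0.976) and PDGFRB (−0.08, adjusted p = 0.952) were not called. Of the feedback inhibitors of receptor signalling some fell, SPRY1 from 2851, 3678 and 1334 to 504, 273 and 717 (−2.40, SE 0.48, adjusted p = 7.22e-05), IL17RD with −2.71 (SE 0.51, adjusted p = 1.86e-05) and the phosphatase DUSP4 with −1.51 (adjusted p = 0.0256). SPRY2 (−0.22, adjusted p = 0.887), SPRY4 (0.45, adjusted p = 0.779) and DUSP6 (0.16, adjusted p = 0.912) were not called, nor were SPRED1, SPRED2, SPRED3 and DUSP5. The receptor KIT, of stem cell factor, fell from 68.2, 110 and 107 to 9.09, 3.68 and 15.4 (−3.46, adjusted p = 2.9e-06), and the neurotrophin receptor NTRK2 rose from 434, 563 and 391 to 1316, 746 and 4348 (2.21, SE 0.46, adjusted p = 0.000149). Of 14 tested genes of the insulin-like growth factors, the binding-protein proteases PAPPA (6433, 8345 and 4339 against 480, 306 and 1377; −3.15, SE 0.46, adjusted p = 1.33e-08) and PAPPA2 (−2.77, adjusted p = 0.000198) fell. Of the exonic bases of PAPPA 21.2% lie under exons of the opposite strand. STC2, an inhibitor of PAPPA, was called higher with 1.404 (SE 0.44, adjusted p = 0.0284), but its genotypes overlapped.

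Among genes of the cytoskeleton, adhesion and calcium transport, the called members were the following. Of 28 contractile genes, the smooth muscle actins ACTG2 and ACTA2 rose (7.14%) and TNS1 fell (3.57%), beside 3.85% and 3.59% of all tested genes. ACTA2, the marker of myofibroblasts, had 5593, 7315 and 5288 in wild type and 28606, 16800 and 64474 in ΔLEO1 (log2FC 2.59, SE 0.44, adjusted p = 1.12e-06), although 30.1% of its exonic bases lie under exons of the opposite strand. TNS1, a link between actin and integrins, had 6840, 7959 and 3617 against 672, 289 and 365 (−3.80, SE 0.46, adjusted p = 8.67e-12). With TMM factors on the genes 15 contractile genes were higher and 1 lower, so that the number but not the direction turned on the scaling. Of 30 integrin and focal adhesion genes none was higher and 3 were lower (10.0%; with TMM factors 7 and 5), namely the integrin subunits ITGA8 (−1.84, adjusted p = 0.00947) and ITGB4 (−1.83, adjusted p = 0.015) and the kindlin FERMT1, at least 9.40-fold lower. Of 38 calcium transport genes 4 fell (10.5%) and 2 rose (5.26%), and with TMM factors 10 and 5 did. Besides CACNA1A, the lower ones included ATP2A3, a calcium pump of the endoplasmic reticulum (152, 207 and 223 against 13.6, 5.52 and 43.7; −3.34, adjusted p = 1.24e-06) and the exchanger SLC8A1 (−1.58, SE 0.45, adjusted p = 0.0107). The channel TRPA1, which responds to irritants, rose from 73.7, 59.8 and 23.4 to 321, 184 and 632 (2.86, adjusted p = 1e-05), and TRPV2 rose with 1.76 (adjusted p = 0.0203).

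Of 23 tested genes of cell cycle arrest, 2 were lower (8.70%) and 1 was higher (4.35%), beside 3.59% and 3.85% of all tested genes. With TMM factors 8 were lower and 1 was higher. Among the lower was the growth arrest gene GAS7, which had 175, 214 and 72.4 against 0, 0.921 and 0, at least 30.7-fold lower. CDKN2B, an inhibitor of the kinases of early cell cycle, was called higher with 1.37 (SE 0.46, adjusted p = 0.0454), and the quasi-likelihood test did not call it (adjusted p = 0.072). Of 37 proliferation genes MYBL2 alone was called (1.37, SE 0.46, adjusted p = 0.0442), with overlapping genotypes and no call by the quasi-likelihood test (adjusted p = 0.071). The median of the proliferation genes was 0.80, with 36 of 37 above 0, beside 0.27 and 73.6% over all tested genes. With TMM factors it was 0.42, with 34 above 0. MKI67 had 3095, 3308 and 3206 against 4156, 2223 and 12412 (0.97, adjusted p = 0.265) and TOP2A had 1.22 (adjusted p = 0.0854), and without library 11, where 1310 of all genes were called higher, 17 proliferation genes were.

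Other lists had isolated changes, to be read beside the 3.85% higher and 3.59% lower of all tested genes. Of 20 tested cytokines and NF-κB targets, the chemokine CXCL12 fell from 22232, 31727 and 18734 to 6759, 3427 and 6782 (log2FC −2.10, SE 0.45, adjusted p = 0.000191), the adhesion receptor ICAM1 fell with −1.66 (adjusted p = 0.0139), and the pentraxin PTX3 rose from 3860, 4759 and 2726 to 15120, 7380 and 12184 (1.61, SE 0.45, adjusted p = 0.00754). IL11, a cytokine of fibrosis, was called higher with 1.46 (SE 0.46, adjusted p = 0.029), and without the highest-numbered libraries it had 0.69 (adjusted p = 0.17). Of 34 tested positional identity genes SIX2 alone was called, falling from 481, 616 and 897 to 37.9, 14.7 and 59.1 (−4.21, SE 0.52, adjusted p = 3.87e-11), and none of the HOX genes was. With TMM factors 4 positional identity genes were higher and 13 lower, and without the highest-numbered libraries 0 and 12. Of 25 glycolysis genes, the hexokinase HK2 rose from 520, 635 and 570 to 1982, 989 and 3662 (1.94, SE 0.45, adjusted p = 0.000871). The regulatory kinase PFKFB3 was called higher (1.52, SE 0.45, adjusted p = 0.0156) with overlapping genotypes. PDK4, which inhibits pyruvate dehydrogenase, fell from 277, 292 and 276 to 28.8, 24.9 and 41.1 (−3.17, adjusted p = 1.85e-06). With TMM factors on the genes 13 glycolysis genes were higher and 1 lower. Genes of oxidative phosphorylation were not called, neither the 74 tested nuclear-encoded genes (median 0.31) nor the 13 mitochondrially encoded ones (median 0.20), of which MT-CO1 had −0.09 (adjusted p = 0.95) and MT-ND4 had 0.34 (adjusted p = 0.824). With TMM factors 11 of the nuclear-encoded genes were higher and 1 lower, where 15.4% and 17.6% of all tested genes were.

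The counts of most lists moved with single libraries, as did those over all genes, which went from 509 to 1310 higher without library 11 and from 475 to 1037 lower without library 12. Without library 11 more members were called higher, as with 11 of the TGF-β and BMP list, 9 of the contractile list, 8 each of the axon guidance and growth factor lists, 7 each of the calcium and matrix glycoprotein lists, 6 each of the glycolysis and protease lists and 5 of the integrin list. Without library 12 more were called lower, as with 13 matrix glycoproteins, 10 each of collagens, axon guidance and growth factor genes, 9 of the TGF-β and BMP list, 8 proteases, 7 each of the arrest and serpin lists and 6 positional identity genes. The members called in all 6 fits without 1 library were fewer. They were 1 higher and 6 lower for matrix glycoproteins, 1 and 4 for Wnt genes, 2 and 4 for growth factors, 1 and 3 each for the TGF-β and BMP, calcium and axon guidance lists, and 0 and 1 for collagens. For cadherins they were 4 and 1.

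**Figure D3:**
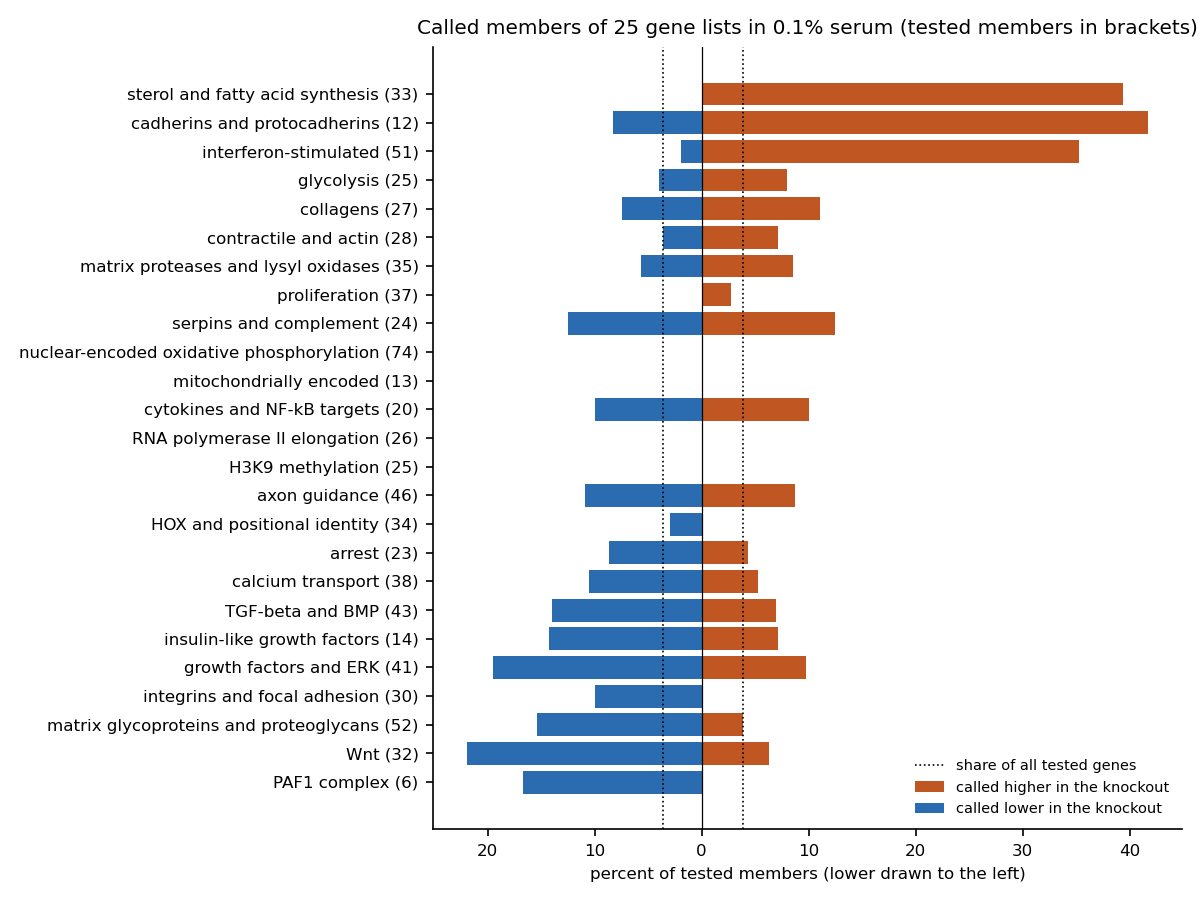
Percent of the tested members of each of the 25 gene lists that were called higher (bars to the right of 0) or lower (bars to the left) in ΔLEO1 in 0.1% serum, with dotted lines at the shares of all tested genes (3.85% and 3.59%). The sterol list (39.4% higher, none lower) and the interferon list (35.3% higher, 1.96% lower) lie far to the right. The cadherin list, of which 12 of 31 members passed the filter, has 41.7% higher and 8.33% lower. The Wnt list has 21.9% and the matrix glycoprotein list 15.4% of their members lower.

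The same genotype difference was measured in 10% serum with 6 other libraries, which share the gene filter and the fit. There 556 genes were higher (4.2%) and 614 lower (4.64%). Of the 509 genes higher in 0.1% serum, 504 (99.0%) had the same sign in 10% serum, 370 (72.7%) were called higher there and none was called lower. Of the 475 lower genes, 462 (97.3%) had the same sign, 387 (81.5%) were called lower, and 1, the teneurin TENM4, was called higher. Of all tested genes 79.5% had the same sign, with TMM factors on the genes and each serum level centred on its median. Across all tested genes the log2FC values of the serum levels had a Spearman correlation of 0.744 and a Pearson correlation of 0.881. This is a correlation across genes, which are not independent replicates, and the clone and the wild-type line are common to both serum levels. The interferon list had 24 members called higher in 10% serum and the sterol list had 16, and neither had any called lower. Some genes had larger differences in 10% serum, such as IFI27 (log2FC 5.53 in 10% and 3.08 in 0.1%) and POSTN (5.29 and 3.11), but neither of these was called in the test of the interaction.

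The interaction of genotype and serum, which tests whether the genotype difference itself differs between serum levels, was called for 29 genes (0.219%), 18 with a positive and 11 with a negative difference of 0.1% minus 10% serum. Of them 15 were also called in 0.1% serum, 5 higher and 10 lower. HPSE2, a relative of heparanase, was called lower in 0.1% serum, with 4580, 6094 and 3856 against 575, 344 and 812 (log2FC −3.07, SE 0.47, adjusted p = 8.01e-08) and 0.05 in 10% serum (adjusted p = 0.956; interaction adjusted p = 0.00429). SCUBE3, a secreted signalling protein, had 2537, 3200 and 784 against 448, 298 and 344 (−2.58, SE 0.46, adjusted p = 4.41e-06) and 0.35 in 10% serum (interaction adjusted p = 0.00659). FMO1, described above, had 3.89 in 0.1% and −0.03 in 10% serum (interaction adjusted p = 0.000264), and the epithelial keratin KRT4 had 6.95, 4.6 and 24.5 against 127, 77.3 and 933 (4.84, SE 0.57) and 0.68 in 10% serum (interaction adjusted p = 9.86e-05). In these 4 genes the genotype difference was larger in size in 0.1% serum. COL14A1, a collagen of fibril surfaces, showed the reverse, with 4092, 3805 and 2061 against 6091, 3127 and 7303 in 0.1% serum (0.73, adjusted p = 0.552) and 7.38 in 10% serum (interaction adjusted p = 1.94e-16). Its level in wild type was 0.549 ± 0.231 CPM in 10% serum and 68.6 ± 16.7 CPM in 0.1% serum (SD, n = 3), and in ΔLEO1 it was 78.9 ± 40.2 and 100.2 ± 17.9 CPM. COL14A1 was thus near absent in 1 of the 4 groups, wild type in 10% serum.

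**Figure D4:**
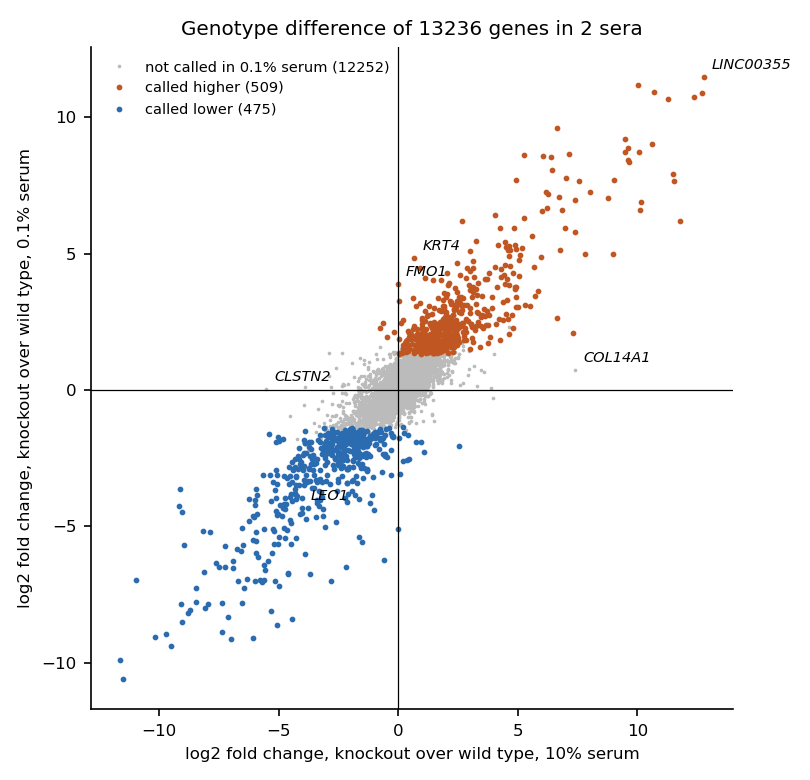
Log2FC of ΔLEO1 over wild type in 0.1% serum (vertical) against that in 10% serum (horizontal) for the 13236 tested genes, on the ERCC scale, with the 509 genes called higher in 0.1% serum in orange, the 475 called lower in blue and the others in grey. Nearly all called genes lie in the quadrants of equal sign (99.0% of the higher and 97.3% of the lower genes). Of all tested genes 79.5% had the same sign with TMM factors on the genes after centring on the medians.

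The called genes were not spread evenly over gene types and levels. Of 887 tested long noncoding RNA genes 98 were higher (11%) and 30 lower (3.38%), whereas of 11882 protein-coding genes 3.19% were higher and 3.66% lower. Among 5 equal bins of genes by mean CPM, 11.3% of the lowest bin were higher and 10.0% lower, against 1.66% and 1.02% of the highest bin. The lowest bin ran from 0.00992 to 4.32 CPM, and its genes could pass the filter through 1 group alone. Its share of calls is therefore not independent of the filter. The protein-coding genes with the longest spans, from 101373 bases upward, had 5.05% higher and 6.18% lower genes, against 3.03% and 2.94% for the shortest. Level and gene type were not separated here.

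Some called genes were neighbours. Runs of 3 or more consecutive tested genes called the same way numbered 16 and are described without a test, since neighbours were found after the values were seen. On chromosome X, EDA2R, a receptor of the tumour necrosis factor family, fell from 1281, 1483 and 909 to 56, 18.4 and 54 (log2FC −4.86, SE 0.52, adjusted p = 2.82e-14), and HEPH, a copper-dependent ferroxidase, fell from 199, 257 and 117 to 25.7, 12.9 and 18 (−3.34, SE 0.57, adjusted p = 8.9e-07). On chromosome 2, from 165087522 to 165794682, the sodium channel genes SCN3A (69.5, 87.4 and 117 against 4.54, 1.84 and 5.14, at least 18.2-fold lower) and SCN2A (−4.08, SE 0.69, adjusted p = 9.42e-08) fell with their neighbours CSRNP3 and GALNT3. EDA2R, HEPH and the 4 genes of chromosome 2 were also called lower in 10% serum.

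Runs of higher genes included the clusters IFIT2, IFIT3 and IFIT1 on chromosome 10 and OAS1, OAS3 and OAS2 on chromosome 12. On chromosome 19 the pregnancy-specific glycoprotein genes PSG1, PSG6 and PSG2 formed a run and PSG4, CEACAMP10 and PSG9 another. PSG1 had 0, 4.6 and 8.9 in wild type and 111, 35.9 and 113 in ΔLEO1 (log2FC 4.11, SE 0.67, adjusted p = 5.97e-09), but 11.5% to 29.8% of the 58-base stretches of the PSG genes named here are shared with other members, so the assignment among them is uncertain. On chromosome 7 a run of 6 from 116209234 to 116508541 held TES, a focal adhesion protein gene, and CAV2, a caveolin (5974, 7115 and 5117 against 15393, 9050 and 32398; 1.64, SE 0.44, adjusted p = 0.00539). CAV2 was not called without library 12, where it had 1.01 (adjusted p = 0.0891).

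By chromosome, medians of the log2FC with TMM factors on the genes lay between −0.27 and 0.12 for chromosomes 1 to 22 and X. The lowest was that of chromosome 4, at −0.27 in 0.1% and −0.15 in 10% serum, and the highest that of chromosome 22, at 0.12 and 0.04. In windows of 50 tested genes the lowest median lay on chromosome 4 between 151099573 and 174284264, where it was −0.70 relative to all genes and 43 of 50 genes were below the median of all genes, with −0.47 in 10% serum. CPE, described above, lies in that window. Of 1214 windows 29 had a median of at least 0.3 in absolute value. The windows overlap, each starting 10 tested genes after the one before, so they are not separate regions. Those with the largest absolute medians all lay on chromosome 4, between 77157151 and 189963204, and all their medians were negative. The next lay on chromosome 3 from 49015488, with −0.33.

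**Figure D5:**
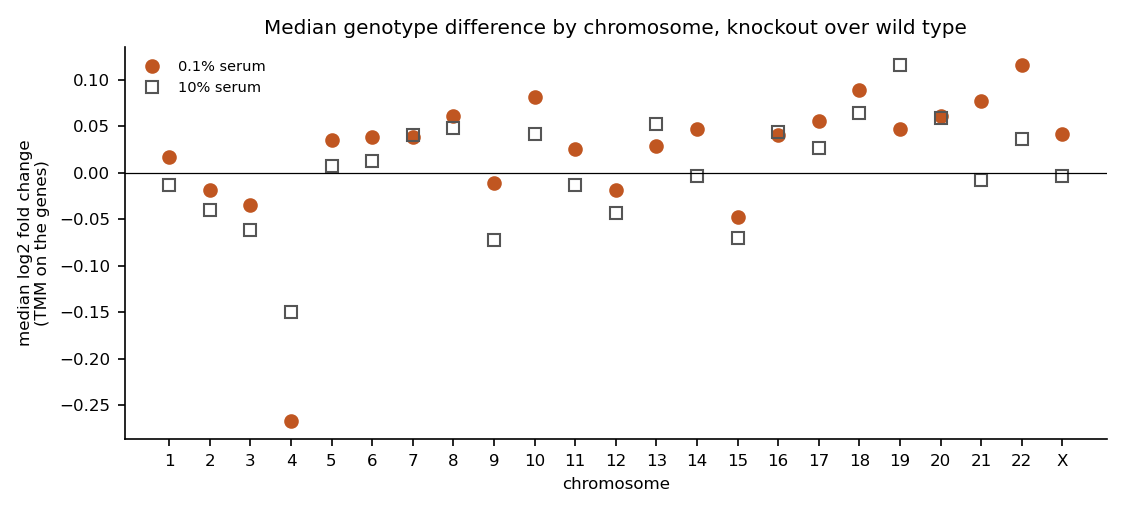
Median log2FC of ΔLEO1 over wild type with TMM factors on the genes for the tested genes of each chromosome, in 0.1% serum (filled) and in 10% serum (open squares). Chromosome 4 lies below the others at −0.27 in 0.1% and −0.15 in 10% serum.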

How the data were processed

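Poly(A) RNA of 12 libraries was sequenced, 3 for each genotype and serum level. Per the labels, the authors added ERCC transcripts, demultiplexed with bcl2fastq 2.20.0.422, aligned 58-base paired reads with STAR (2.7.10a in the submitters' processing notes) to GRCh38, counted with featureCounts 1.5.1, and deposited raw counts per gene, unnormalized. Neither the release of the annotation nor whether strand was used in counting is given in the sources used here. Library groups came from the sample titles. Genes with over 1 CPM in 3 or more libraries were tested. In edgeR 4.0.16 (R 4.3.3, limma 3.58.1) one negative binomial model with 4 groups was fitted over all 12 libraries, with the ERCC total times a TMM factor on the ERCC transcripts as library size, the way the study scaled its data. Each contrast was tested with two-sided likelihood ratio tests, Benjamini-Hochberg adjusted over all tested genes at 0.05. The method was tested on simulated data.

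Alternatives were edgeR's quasi-likelihood test, DESeq2 1.42.0, other scalings, other filters, the libraries in 0.1% serum alone, and fits without 1 library or without the highest-numbered library of each group. A fold against a group with at most 3 counts in every library was computed as a bound against 3 counts per library. Of 60671 gene identifiers 42020 had a symbol in the table of gene names and 58453 a GENCODE position. The members and lists were chosen with earlier results of these data known. Named genes were LEO1; the 12 called genes of each direction with the largest change among genes with a symbol, protein coding or long noncoding, at 10 CPM or more in 1 group, with genotypes not overlapping and a call in all 6 fits without 1 library; and, per list, up to 4 called members with the smallest adjusted p and the 2 most abundant. Genes of the interaction, of runs and of marker lists, and the other list members given, were named after their values were seen. Shared sequence and opposite-strand exons were checked in 168 named genes, but not in others given above, such as PCDH7, IFI27 and FMOD. Among the 168, read-length stretches shared with another gene exceeded 10% in 13, and exons lay under opposite-strand exons for over 10% of bases in 9. Those given above without their share were MT-CO1 (44.8%), CST1 (18.8%), CLDN11 (16.8%), PDGFRA (15.0%) and IFITM3 (13.9%) for shared stretches. For opposite-strand exons they were IFITM3 (21.3%) and IL6 (20.7%). Intervals other than between-library standard errors were not computed, and depth limits genes of few counts. Some called genes are not reported here, and counts of lists include them.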

Additional observations from a re-analysis of the deposited data

Results flagged for a closer look

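For 29 genes the difference between ΔLEO1 and wild type itself differed between 0.1% and 10% serum in the likelihood ratio test of the interaction in edgeR. A test for a single library far from the others needs at least 4 libraries, and each group held 3; the highest-numbered library of each group stood apart from the other 2. CXCL8 had 4.85, 4.95 and 236 CPM and IL6 had 2.66, 3.80 and 115 CPM in wild-type libraries 1, 2 and 3 in 10% serum, so that library 3 carries both values. Values are the log2 difference in 0.1% serum minus that in 10% serum. Genes of matrix and its processing were COL14A1 (−6.651), COL21A1 (−4.189), ASPN (4.238), OMD (3.436), FRAS1 (3.678), SULF1 (2.553), CHST15 (3.028), HPSE2 (−3.126) and RELN (−2.962). Secreted or signalling proteins were CXCL8 (4.016), IL6 (3.384), PDGFB (3.532), SCUBE3 (−2.933), A2M (3.406), CST1 (−3.811) and CPA4 (3.052). Receptors and membrane proteins were CLSTN2 (5.561), COLEC12 (3.798), FPR3 (−5.238), LRRC15 (3.604), TENM4 (−4.609), CLDN11 (−2.929), SHISAL1 (3.304) and ENTPD1 (−3.397). The remaining genes were KRT4 (4.163), FMO1 (3.92), CYP26B1 (−4.265), DTX4 (3.218) and MAP2K6 (2.788). The quasi-likelihood test did not call CHST15, MAP2K6, ENTPD1, COL21A1, PDGFB and RELN, and scaling by TMM on the genes did not call CXCL8, IL6 and MAP2K6.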

How the results depend on the processing

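No paired analysis was run, because the running numbers 1 to 12 of the libraries tie no library of a group to a library of another group. The highest-numbered library stood apart in each of the 4 groups, and position in the group was not entered in the fit. Against 509 higher and 475 lower genes in 0.1% serum, TMM factors on the genes gave 2033 and 2333, and DESeq2 size factors on the genes 2067 and 2299. No filter gave 862 higher and 682 lower, filterByExpr 791 and 634, and the 6 libraries in 0.1% serum alone 303 and 349. Without 1 library the counts ranged from 314 to 1310 higher and 312 to 1037 lower, the median of all genes from −0.271 to 0.5848, and LEO1 from −5.07 to −3.98. Without the highest-numbered library of each group there were 328 and 2047, with a median of −0.4181. Summing the pair of libraries with the lowest numbers in each group gave 296 and 196. TMM factors without the highest-numbered libraries, an alternative chosen after seeing the data, gave 4015 and 3848. The 757 genes called the same way in both sera became 3180 with TMM factors and 5608 with the added alternative, and the 29 interaction genes became 540 and 3546, and 114 without the highest-numbered libraries. Among named genes called in either of the compared fits, direction turned for CLSTN2, not called in 0.1% serum. CLSTN2 had −1.761 without the highest-numbered libraries and −1.361 with the added alternative. That alternative also turned TBX3 (−0.2442), WNT5A (−0.3234) and MT-CO1 (0.1642), which the main fit did not call. A further 30 named genes, called in neither fit, changed sign without the highest-numbered libraries, and 22 did so without library 12. The cause was not tested. Of 167 other named genes, 165 kept direction and side of the threshold with the quasi-likelihood test and 161 with DESeq2. Without the highest-numbered libraries 8 of the 167 lost their call, 7 were newly called and 4 were not tested.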
